A study of Mus musculus with 17 samples.

Results

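The skeletal muscle sarcomere and synapse genes are a module of 45 genes, chosen by symbol from the 23420 genes of a count table, and all 45 symbols were found in it. The module covers 10 thick filament genes, 10 thin filament and troponin genes, 9 genes of the Z disc, the M line, titin and sarcomere assembly, 6 genes of calcium release and energy supply, 4 genes of the cell membrane, adhesion and fusion, and 6 genes of the neuromuscular synapse. The study sequenced RNA from cells of C57BL/6 mice that carry the R172H knock-in, a mutated allele of the tumour suppressor p53. It asked how tumour lines derived from mesenchymal stem cells differ from those cells, and how knockout clones differ from control clones.

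There were libraries of 4 second-generation tumour lines (TL2), 6 first-generation tumour lines (TL1), 3 cultures of bone marrow mesenchymal stem cells (MSC), 2 clones of first-generation tumour line cells labelled as p53 knockout (KO clones) and 2 control clones of such cells that keep mutant p53 (Mut clones). All cells were within passages 2 to 20, and none was treated. The labels do not say from which line the clones came. Library names keep the number in parentheses of the labels, with a letter where a group holds a number more than once, so that TL1 3a and TL1 3b are the lines with the number 3. Cells from tumours were kept on agar-coated dishes with leukaemia inhibitory factor, and MSC in a medium for MSC, so effects of the medium and of the tumour state cannot be told apart. The labels name no separate animals within a group, so each p-value rests on the spread among the given libraries, part of which may be technical.

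The sarcomere is the contractile unit of striated muscle, in which myosin thick filaments pull on actin thin filaments under the control of troponin, titin spans from Z disc to M line, and calcium leaves internal stores through the ryanodine receptor. At the neuromuscular synapse, acetylcholine opens a receptor built from alpha, beta, delta and gamma subunits in fetal muscle, where an epsilon subunit later takes the place of gamma, and the kinase MuSK and the scaffold rapsyn gather the receptors under the nerve ending. In the embryo and in repair, the factors Myf5 and MyoD mark committed muscle precursors, while myogenin accompanies the switch to fusion and to filament genes.

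Library totals were 12215025 to 15962341 counts. Levels are CPM, read counts scaled to a common total after TMM scaling (by a trimmed mean of log ratios between libraries), and changes were called at an adjusted p under 0.05 by edgeR's quasi-likelihood test with Benjamini-Hochberg adjustment over all genes tested. In bulk RNA, fewer cells of a type and less RNA per cell cannot be told apart. Markers of heart muscle were nearly absent: the summed level of 10 such genes was at most 3.97 CPM in any library, with 3 to 6 of them at 0, although Actc1, Tnnt2, Tnnc1, Myl4, Casq2 and Myh7 of the module are also known from heart. Rn45s, a ribosomal RNA precursor, took 4.14% of the counts in KO clone 2 and 0.476% to 1.59% in the other 16 libraries.

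**Figure D1:**
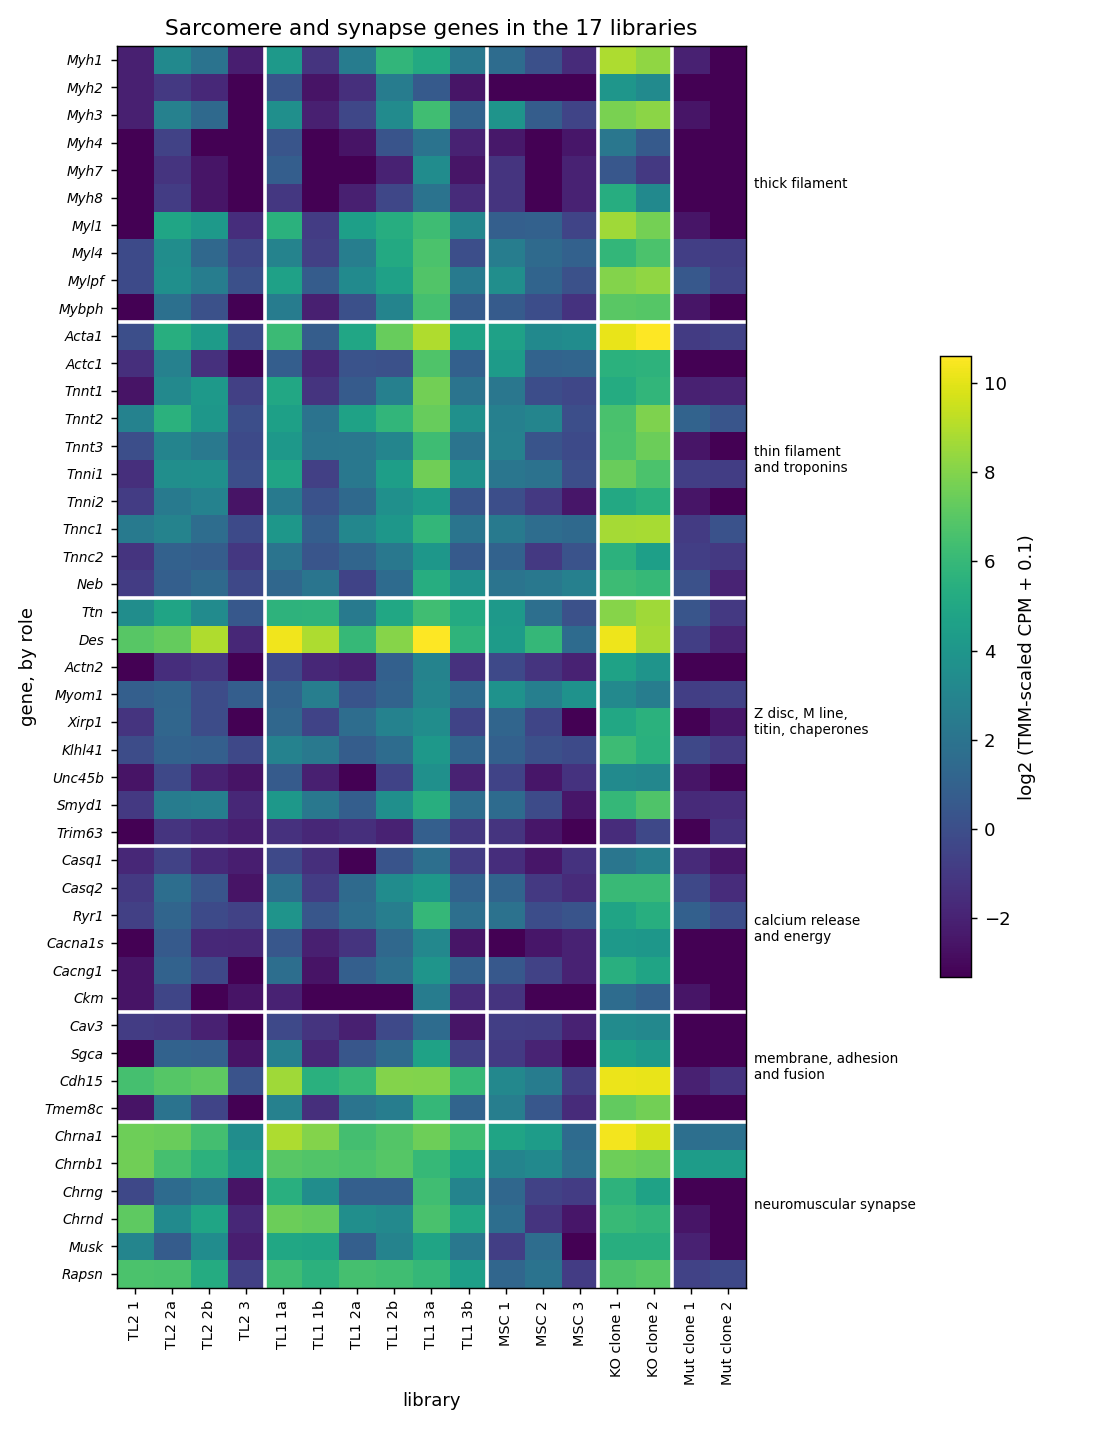
Level of each of the 45 genes (vertical axis, by role) in each of the 17 libraries (horizontal axis), as log2 of TMM-scaled CPM plus 0.1, from dark (low) to yellow (high). KO clone 1 and KO clone 2 are bright across nearly all genes, TL1 3a is the brightest tumour line in 37 genes, and TL2 3 and the Mut clones are dark outside Chrna1 and Chrnb1.

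The clones differed most. With 2 clones per label and their parent lines not stated, effects of the knockout and of the clones' origin cannot be told apart. KO clones held the mRNAs of nearly the whole sarcomere and synapse, which were at or near 0 in Mut clones. Their summed level over the 45 genes was 8689 and 7912 CPM in KO clones, against 38.0 and 33.5 CPM in Mut clones. The gene whose loss defines the clones, Trp53, was at 80.4 and 89.5 CPM in KO clones, against 357 and 278 CPM in Mut clones (log2 change -1.89, SE 0.226, edgeR adjusted p = 0.00259). For 44 of the 45 genes both KO libraries lay above both Mut libraries, the exception being Trim63, a ubiquitin ligase that was at 0.235 and 0.716 CPM in KO clones and at 0 and 0.316 CPM in Mut clones. Of the 12238 genes tested, 34.7% lay apart in this direction and 35% in the other. The expression filter let 43 members into the test, leaving out Myh7 and Trim63, and 39 of the 43 could not have passed it through the Mut libraries alone, so that their call was in part fixed by the filter. With that reserve, 43 of 43 were called higher and 0 lower by edgeR, beside 14.2% of all genes called higher and 12% called lower. The median log2 change of the 43 was 9.19, or 8.23 with the 11 genes that had no count in Mut clones set to their lower bound, and that of all genes tested was 0.005. Without Mut clone 2, Myh4, Myh8 and Ckm were not called, without Mut clone 1 Myh4 and Myh8, and without KO clone 1 Myh4 and Ckm.

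Among thick filament genes, Myh1, the fast IIx heavy chain, was at 481 and 309 CPM in KO clones, against 0.145 and 0 CPM in Mut clones. Those 2 counts in Mut clones give a ratio of 5233 with a 95% counting interval of 1448 to 43220. Myh3, the embryonic heavy chain, was at 224 and 289 CPM in KO clones, against 0.0723 and 0 CPM in Mut clones. Each heavy chain was thus counted in both KO libraries and had at most 2 counts in both Mut libraries together.

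The light chains moved with them. Mylpf, the fast regulatory light chain, was at 263 and 310 CPM in KO clones, against 1.30 and 0.553 CPM in Mut clones (log2 change 8.25, SE 0.414, edgeR adjusted p = 0.000115). Myl1, the fast alkali light chain, was at 389 and 209 CPM in KO clones, against 0.0723 and 0 CPM in Mut clones. Myl4, the embryonic and atrial light chain, was at 60.4 and 100.1 CPM in KO clones, against 0.506 and 0.474 CPM in Mut clones (7.34, SE 0.431). In each of these genes both KO libraries lay far above both Mut libraries. Mybph, a myosin binding protein, was at 131 and 119 CPM in KO clones and had 1 count in Mut clones. Its exons overlap those of Adora1 on the other strand over 49.9% of their length, and the strand setting of the counting is not given in the sources used here, so reads of the pair cannot be told apart.

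Thin filament genes were called alike. Acta1, skeletal actin, was at 1106 and 1530 CPM in KO clones, against 0.434 and 0.553 CPM in Mut clones (log2 change 11.37, SE 0.389, edgeR adjusted p = 5.34e-05). Actc1, the actin of heart and of embryonic skeletal muscle, was at 48.1 and 51.0 CPM in KO clones and had no count in Mut clones, so it was at least 437-fold higher. Tnnc1, slow and cardiac troponin C, was at 416 and 430 CPM in KO clones, against 0.434 and 1.03 CPM in Mut clones (9.19, SE 0.402). All of these genes were near 0 in both Mut libraries. The 6 other troponin genes were at 23.5 to 242 CPM in KO clones and at 0 to 2.10 CPM in Mut clones. For Tnnc2, the fast troponin C, 74.0% of the exon length overlaps Ube2c on the other strand, so its levels are uncertain. Neb, nebulin, which spans the thin filament, was at 75.4 and 63.6 CPM in KO clones, against 1.01 and 0.158 CPM in Mut clones (6.85, SE 0.617).

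The frame of the sarcomere followed, with smaller changes in Myom1. Ttn, titin, was at 269 and 388 CPM in KO clones, against 1.16 and 0.395 CPM in Mut clones (log2 change 8.70, SE 0.501, edgeR adjusted p = 0.000196). Des, desmin, the muscle intermediate filament, was at 1198 and 421 CPM in KO clones, against 0.506 and 0.158 CPM in Mut clones (11.20, SE 0.911). Myom1, the M line protein myomesin, was at 9.41 and 5.97 CPM in KO clones, against 0.506 and 0.553 CPM in Mut clones (3.85, SE 0.545). The KO libraries were the higher ones each time, and desmin differed most between them. Actn2, the Z disc actinin, Xirp1, an actin-binding protein of the Z disc region, Klhl41, which stabilises nebulin, and the myosin chaperone factors Unc45b and Smyd1 were also called higher, at 8.59 to 107 CPM in KO clones and at most 0.723 CPM in Mut clones.

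Genes of excitation and fusion were called too. Casq2, a calsequestrin that stores calcium, was at 67.8 and 68.0 CPM in KO clones, against 0.723 and 0.237 CPM in Mut clones (log2 change 7.11, SE 0.454). Ryr1, the calcium release channel, was at 28.1 and 42.3 CPM in KO clones, against 1.81 and 0.869 CPM in Mut clones (4.71, SE 0.460). Cacna1s and Cacng1, subunits of the voltage sensor that gates it, had no count in Mut clones and were at least 154-fold and 313-fold higher in KO clones. Ckm, muscle creatine kinase, a marker of mature fibres, was low even in KO clones, at 2.90 and 1.91 CPM, against 0.0723 and 0 CPM in Mut clones. In the calcium and energy group the KO libraries thus lay apart from the Mut libraries in all 6 genes.

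Tmem8c, the fusion protein now named Mymk or myomaker, was at 152 and 196 CPM in KO clones and had no count in Mut clones, which makes it at least 1538-fold higher. Cdh15, M-cadherin, which joins myoblasts, was at 1156 and 1125 CPM in KO clones, against 0.145 and 0.316 CPM in Mut clones (log2 change 12.25, SE 0.385, edgeR adjusted p = 5.34e-05). Sgca, a sarcoglycan, and Cav3, the muscle caveolin, had no count in Mut clones and were at least 184-fold and 85.8-fold higher in KO clones.

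The synapse genes held the member that changed least. Chrna1, the receptor's alpha subunit, was at 1309 and 871 CPM in KO clones, against 3.25 and 3.56 CPM in Mut clones (log2 change 8.33, SE 0.353, edgeR adjusted p = 8.69e-05). Chrnb1, the beta subunit, was at 185 and 167 CPM in KO clones, against 20.4 and 20.6 CPM in Mut clones (3.11, SE 0.220). Rapsn, rapsyn, was at 106 and 121 CPM in KO clones, against 0.578 and 0.711 CPM in Mut clones (7.45, SE 0.316). Chrnb1 was the one member above 5 CPM in both Mut libraries, and its 2 KO values exceeded them all the same. Chrng, the fetal gamma subunit, was at 51.5 and 26.1 CPM in KO clones and had no count in Mut clones, so it was at least 343-fold higher. Chrnd, the delta subunit, was at 67.0 and 57.1 CPM and Musk, the kinase MuSK, at 41.9 and 42.4 CPM in KO clones, with 1 and 2 counts in Mut clones. Chrne, the adult epsilon subunit and no member, had 0 counts in both KO libraries and at most 5 in any of the 17, so the subunits detected were those of the fetal receptor.

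**Figure D2:**
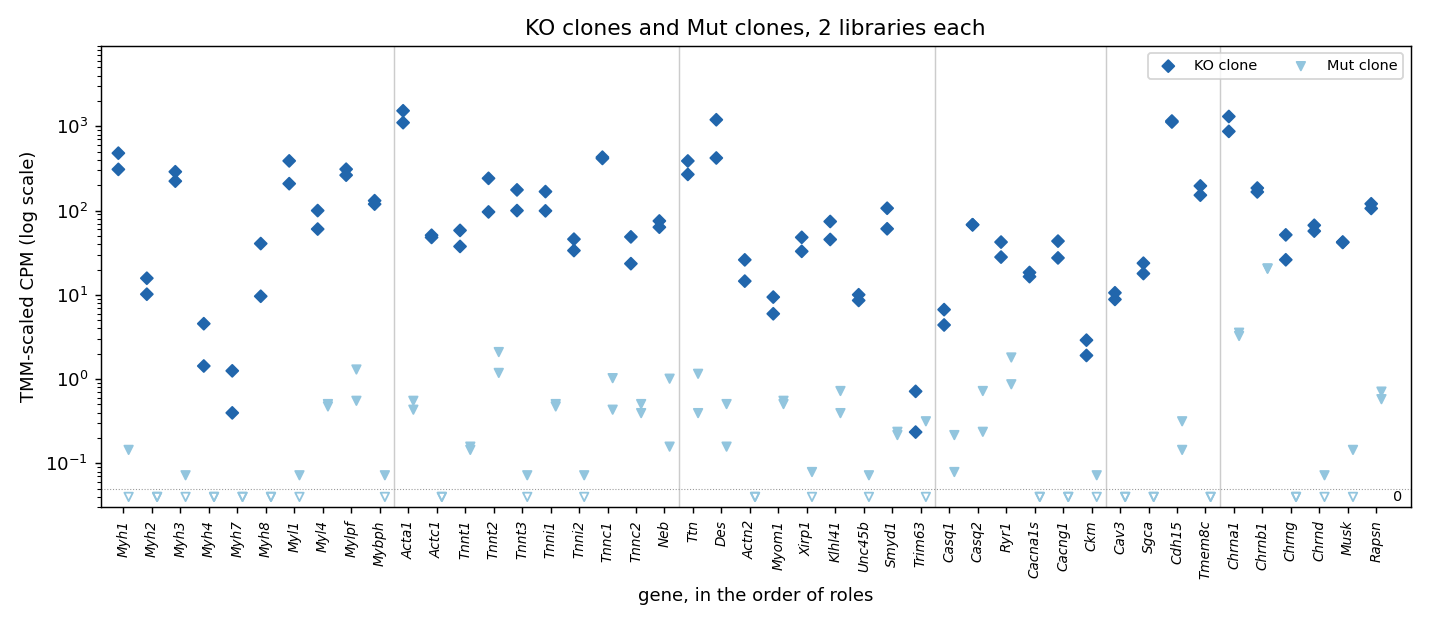
Level of each of the 45 genes in the KO clones (dark diamonds) and the Mut clones (light triangles), 2 libraries each, as TMM-scaled CPM on a log axis, with libraries at 0 drawn as open symbols under the dotted line. The KO symbols lie above the Mut symbols for every gene but Trim63, and Chrnb1 is the gene with the smallest gap among the 43 tested.

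The promoters of 4 members called higher in KO clones are shown because they hold the letters of the E box, the motif that MyoD and its relatives are known to bind. Each run is the 250 bases before the start that RefSeq's promoter table gives on GRCm38.p6, read along the gene's strand, with E boxes (CANNTG) in capitals. Chrna1 and Chrng are synapse genes, at chr2:73580339-73580588 on the minus strand and chr1:87205561-87205810 on the plus strand, and Acta1 and Myh3 are filament genes, at chr8:123894776-123895025 on the minus strand and chr11:67078050-67078299 on the plus strand. The annotated span of Myh3 begins at 67078273, so the end of its run lies inside the gene.
Chrna1: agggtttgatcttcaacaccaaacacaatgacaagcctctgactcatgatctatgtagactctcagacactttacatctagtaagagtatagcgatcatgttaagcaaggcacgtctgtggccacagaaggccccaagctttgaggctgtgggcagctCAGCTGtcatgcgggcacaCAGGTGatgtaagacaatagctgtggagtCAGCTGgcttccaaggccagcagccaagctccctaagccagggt
Chrng: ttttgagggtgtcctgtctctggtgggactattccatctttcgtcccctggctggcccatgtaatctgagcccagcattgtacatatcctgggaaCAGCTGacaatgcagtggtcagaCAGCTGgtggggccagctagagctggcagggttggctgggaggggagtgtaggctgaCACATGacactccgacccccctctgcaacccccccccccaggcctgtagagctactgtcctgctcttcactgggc
Acta1: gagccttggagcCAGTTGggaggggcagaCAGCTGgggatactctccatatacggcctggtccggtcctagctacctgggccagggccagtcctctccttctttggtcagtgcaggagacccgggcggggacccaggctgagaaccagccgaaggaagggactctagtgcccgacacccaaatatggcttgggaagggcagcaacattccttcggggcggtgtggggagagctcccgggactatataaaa
Myh3: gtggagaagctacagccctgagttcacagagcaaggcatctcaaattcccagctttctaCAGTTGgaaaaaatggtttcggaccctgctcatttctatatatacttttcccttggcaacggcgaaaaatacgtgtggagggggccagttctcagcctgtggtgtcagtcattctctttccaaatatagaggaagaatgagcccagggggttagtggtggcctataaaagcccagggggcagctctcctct

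Chrna1, Chrng and Acta1 hold the variant CAGCTG among their 3, 3 and 2 E boxes, and Myh3 has 1 E box of another form. RefSeq promoters were matched for 37 of the 45 members, as 40 promoters, and none was given for Tnnt3, Tnni2, Neb, Xirp1, Cacng1, Tmem8c, Chrnd and Rapsn. Searched on both strands, CANNTG occurred in 85.0% of the 40 promoters, against 66.2% of the 32851 promoters of the table. The form CAGCTG, which is also an E box, occurred in 45%, against 13% of all promoters. A MEF2 box occurred in 15.0%, against 2.92%, and a CArG box, the motif of serum response factor, in 10%, against 1.47%. These are counts of letters in a window and not of bound sites.

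The factors that act on such genes differed between the clones as well. Myod1, which encodes MyoD, was at 326 and 331 CPM in KO clones, against 0 and 0.158 CPM in Mut clones, a ratio of 4351 (95% counting interval 1204 to 35932). Myog, myogenin, was at 178 and 237 CPM in KO clones, against 0.0723 and 0.0790 CPM in Mut clones. Myf5 was at 88.9 and 60.9 CPM in KO clones and had no count in Mut clones, so it was at least 662-fold higher. All of these were abundant in both KO libraries and at no more than 2 counts in each Mut library. Gm7325, the table's symbol for the fusion peptide Mymx, was at 13.4 and 10.3 CPM in KO clones with no count in Mut clones. Myf6 had 11 counts in KO clones and Pax7, the marker of satellite cells, 5, with none in Mut clones, and neither passed the filter. Pax3, an upstream factor of muscle precursors, was at 0.392 and 0 CPM in KO clones, against 2.24 and 1.19 CPM in Mut clones, and was not called (-3.05, SE 1.06, edgeR adjusted p = 0.0773).

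Most other muscle genes tested moved in the same direction. Of 14 tested myogenic regulators, 11 had a positive log2 change, and 7 were called higher and 0 lower in KO clones. Those called include Myod1, Myog and Myf5, given above, and Id2 and Eya1. Of 21 further sarcomere genes tested, 20 were called higher and 0 lower, among them Actn3, the fast-fibre actinin (274 and 297 CPM in KO clones, against 0.434 and 0.553 CPM in Mut clones). Of 13 further genes of calcium handling and metabolism tested, 12 were called higher and 0 lower, among them Jph2, a junctophilin that couples the membrane to calcium stores (223 and 363 CPM in KO clones, against 0.362 and 0.0790 CPM in Mut clones). Of 12 further synapse and membrane genes tested, 7 were called higher and 2 lower, among the higher ones Itga7, the laminin receptor of muscle (1032 and 906 CPM in KO clones, against 15.0 and 27.7 CPM in Mut clones), Lrp4, the agrin receptor (138 and 260, against 5.21 and 5.45 CPM), and Dok7, the adaptor of MuSK (22.1 and 34.3, against 0 and 0.158 CPM). The genes named were picked from those called with the smallest p, so their direction adds nothing to these counts. The 2 genes called lower are not among them. Over all genes tested, 14.2% were called higher and 12% lower. The reserve about the filter holds here too. Genes below its minimum of 0.743 CPM in both Mut libraries, such as Actn3, entered the test through the KO libraries, so their call was in part fixed.

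Markers of other cell types moved between the clones too. The summed level of 8 smooth muscle markers was 2758 and 8469 CPM in KO clones, against 111 and 93.7 CPM in Mut clones, and 2 of the 5 tested, Acta2 and Tagln, were called higher. All 5 had a positive log2 change. Most of that sum was Acta2 (2428 and 6649 CPM in KO clones, against 25.2 and 1.58 CPM in Mut clones), an actin that embryonic skeletal muscle and stromal cells also use. Tagln was at 222 and 1417 CPM in KO clones, against 4.12 and 0.948 CPM in Mut clones. The smooth muscle myosin Myh11 was low throughout, at 0.157 and 1.03 CPM in KO clones, 0 and 0.158 CPM in Mut clones and 1.34, 0.565 and 2.44 CPM in MSC. The summed level of 6 mesenchymal stromal markers was 1056 and 1611 CPM in KO clones, against 49.1 and 96.0 CPM in Mut clones. Of 5 tested, 3 were called higher, and only these 3 had a positive log2 change. In 2 of the 6 both KO libraries lay below both Mut libraries. Of 8 nerve markers, summing to 101 and 58.8 CPM in KO clones, against 32.4 and 28.8 CPM in Mut clones, 3 were tested, 1 of them called higher and 1 lower. Of 6 macrophage and blood markers, summing to 2.90 and 5.09 CPM in KO clones, against 5.57 and 5.06 CPM in Mut clones, 2 were tested and 1, Csf1r, was called higher. The part of these genes and of the Rn45s share in the result was not tested.

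The KO clones also stood above most tumour lines. In 28 of the 45 genes both KO libraries lay above all 10 tumour lines, and in 38 they lay above all but TL1 3a, beside 6.48% and 7.82% of all genes tested in the clones. TL2 3, at the other end, summed to 42.9 CPM over the 45 genes beside the 38.0 and 33.5 CPM of the Mut clones. The other 9 tumour lines summed to 457 to 4572 CPM, with TL1 3a highest, and MSC to 246, 167 and 60.5 CPM. Among tumour lines the members varied widely: the median SD of log2 CPM over the 10 lines was 2.12 for the 40 members tested, against 0.496 for 13261 of the genes tested.

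Against MSC, few members were called in tumour lines, and both synapse and filament mRNA overlapped with MSC in some lines. Of the 40 members that entered the test, 37 had a positive log2 change, with a median of 2.02, against 0.10 for all genes tested. Only 2 were called higher by edgeR, Chrnb1 and Rapsn, both synapse genes, and 1 lower, Myom1. Across all genes, 3.86% were called higher and 4.79% lower (512 and 635 genes, or 680 and 547 with library totals alone), so the count of members called was close to that background. The filter left out Myh7, Myh8, Ckm, Unc45b and Trim63, and 24 of the 40 could not have passed it through the MSC libraries alone.

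Chrnb1 was at 192, 89.0, 49.7 and 16.4 CPM in TL2 lines and at 27.4, 107 and 125 CPM as lowest, median and highest of the TL1 lines, against 7.60, 9.77 and 3.36 CPM in MSC (log2 change 3.73, SE 0.764, edgeR adjusted p = 0.0113). Every one of the 10 tumour lines lay above every MSC library, which held for 1 member and for 5.05% of all genes tested. Rapsn was at 98.9, 98.1, 37.7 and 0.514 CPM in TL2 lines and at 23.5, 70.2 and 89.9 CPM as lowest, median and highest of the TL1 lines, against 2.34, 3.88 and 0.458 CPM in MSC (4.82, SE 1.21, edgeR adjusted p = 0.0295). TL2 3 fell within the MSC range, and the other 9 tumour lines lay above it. Neither gene was called without MSC 1 or without MSC 3, and Rapsn was not called without MSC 2.

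Chrna1 and Cdh15 lay just past the threshold. Chrna1 was at 181, 170, 86.0 and 11.4 CPM in TL2 lines and at 81.2, 152 and 468 CPM as lowest, median and highest of the TL1 lines, against 27.9, 20.5 and 2.82 CPM in MSC (log2 change 3.17, SE 0.940, edgeR adjusted p = 0.0541). Cdh15 was at 88.8, 122, 142 and 1.09 CPM in TL2 lines and at 46.5, 156 and 393 CPM as lowest, median and highest of the TL1 lines, against 9.02, 5.65 and 0.458 CPM in MSC (4.68, SE 1.36, edgeR adjusted p = 0.0505). In both genes TL2 3 was the one tumour line that overlapped MSC. Without TL2 3, Cdh15, Chrna1 and Chrnd were called as well, which brought the members called higher to 5. With the line number as a block the count was also 5.

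Myom1 ran the other way. It was at 1.77, 2.20, 0.838 and 1.67 CPM in TL2 lines and at 1.14, 2.40 and 7.88 CPM as lowest, median and highest of the TL1 lines, against 13.5, 6.22 and 13.7 CPM in MSC (log2 change -2.16, SE 0.503, edgeR adjusted p = 0.0204). TL1 3a, at 7.88 CPM, was the tumour line that overlapped MSC. The call was lost without MSC 1 and without MSC 3. In MSC, filament and frame genes were low but counted, among them desmin at 20.2, 62.4 and 2.82 CPM and skeletal actin at 24.7, 9.61 and 11 CPM, and MSC 1 held 31 of the 45 members at 1 CPM or more, against 20 in MSC 2 and 11 in MSC 3. Smooth muscle markers, unlike the members, were high in MSC: their sum was 252 to 1438 CPM over the tumour lines, against 8431, 4925 and 5851 CPM in MSC, with Lmod1, Acta2 and Tagln called lower in tumour lines. The 6 mesenchymal stromal markers summed to 150 to 4867 CPM over the tumour lines, against 11291, 10046 and 16553 CPM in MSC, and 3 were called lower. Their part in the comparison was not tested.

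**Figure D3:**
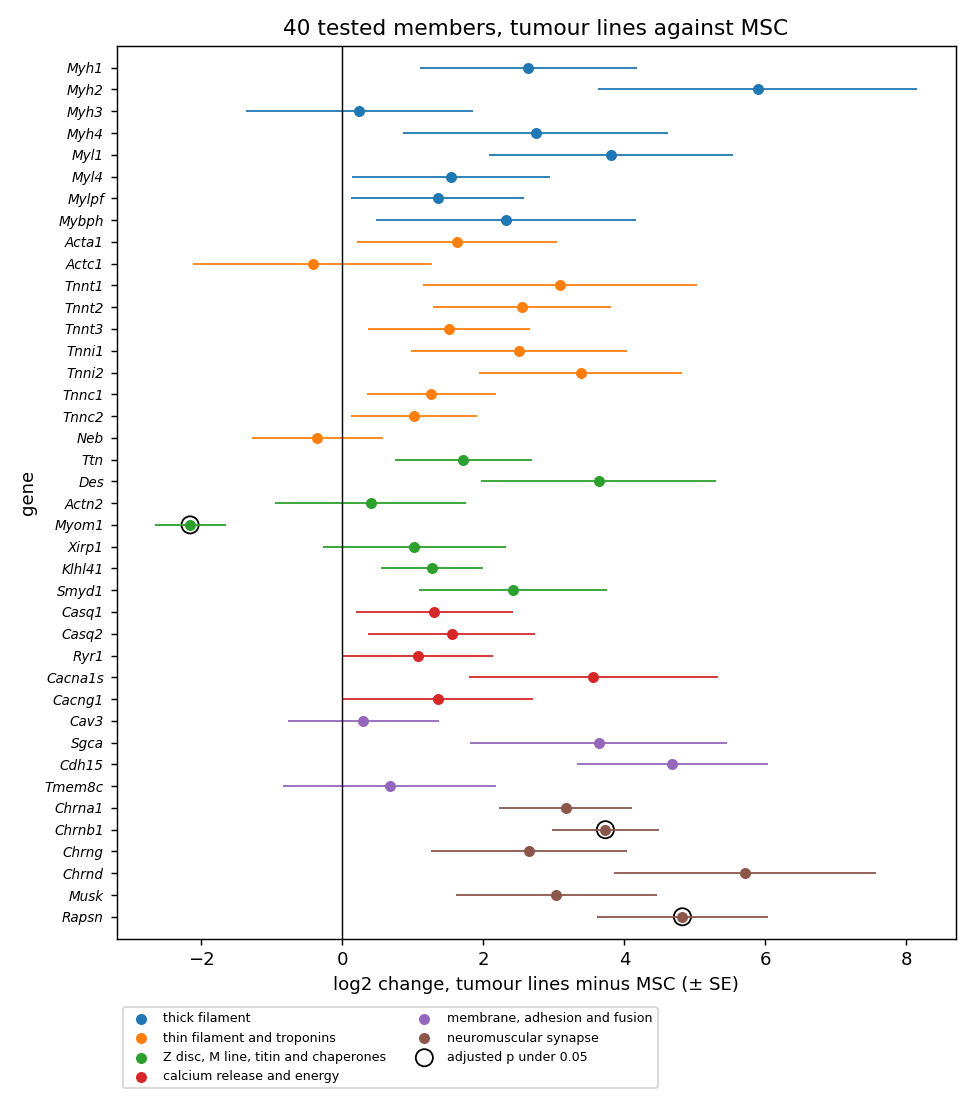
Log2 change of the 40 tested members (vertical axis, coloured by role) between the mean of TL2 and TL1 lines and MSC, with the SE as bars; a positive change means higher in tumour lines. Chrnb1, Rapsn and Myom1 are ringed as called, and the value of Myh2, which had no count in MSC, is a fitted value and no bound.

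Filament genes differed from line to line without a call. Acta1 was at 0.919, 41.8, 19.7 and 0.771 CPM in TL2 lines and at 1.63, 50.9 and 490 CPM as lowest, median and highest of the TL1 lines, against 24.7, 9.61 and 11 CPM in MSC (log2 change 1.63, SE 1.41, edgeR adjusted p = 0.491). TL2 1, TL2 3 and TL1 1b lay below all MSC libraries, and 6 of the other 7 lay above them. Myh3 was at 0.131, 6.73, 2.58 and 0 CPM in TL2 lines and at 0.130, 6.26 and 78.9 CPM as lowest, median and highest of the TL1 lines, against 14.6, 1.62 and 0.610 CPM in MSC (0.24, SE 1.61, edgeR adjusted p = 0.939). Its range over tumour lines enclosed that of MSC. The direction of Myh3, Actc1, Actn2, Cav3, Neb and Tmem8c turned under other tests or without single libraries.

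Synapse and filament mRNAs did not run in parallel in every line. TL2 1 held 624 CPM over the 6 synapse genes and 17.9 CPM over the 20 filament and troponin genes, and TL1 1b held 616 and 22.0 CPM. TL1 3a held 518 CPM over the synapse genes and 1879 CPM over the filament and troponin genes. TL2 1 and TL1 1b thus held more synapse mRNA than TL1 3a, and in filament mRNA they were nearer to the Mut clones, at 7.45 and 4.98 CPM, than to it. For synapse genes the Mut clones held 24.4 and 24.9 CPM. The KO clones were high in both, with 1761 and 1284 CPM for synapse genes and 3740 and 4078 CPM for filaments, and MSC were low in synapse genes at 43.9, 38.0 and 7.17 CPM. Not all lines parted: TL1 1a held 923 CPM for synapse genes and 324 CPM for filaments, and TL2 3 was lowest of the tumour lines in both, at 28.7 and 7.78 CPM. These sums are CPM without correction for length, and the pattern is a description of single lines.

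Gene by gene, TL2 1 had Chrna1 at 181 CPM, Chrnb1 at 192 CPM, the highest value of any library, Chrnd at 143 CPM and Rapsn at 98.9 CPM, but Chrng at 0.722 CPM and Acta1 at 0.919 CPM. TL1 1b had Chrnd at 158 CPM, Chrng at 11.1 CPM and Musk at 28.8 CPM with Acta1 at 1.63 CPM, and its titin, at 53.9 CPM, was the second highest of the tumour lines. Both lines had desmin, at 126 and 476 CPM. Among the regulators, Myf5 was highest in these lines, at 197 CPM in TL2 1 and 124 CPM in TL1 1b, while Myog was at 0.131 and 1.11 CPM. TL1 3a had the opposite balance, with Myf5 at 13 CPM and Myog at 267 CPM. Myod1 was at 7.55 CPM in TL2 1, 60.8 CPM in TL1 1b and 555 CPM in TL1 3a, the same order as Myog. TL1 2a lay below TL1 1b in Myod1, at 36.1 CPM, but above it in Myog, at 3.95 CPM.

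**Figure D4:**
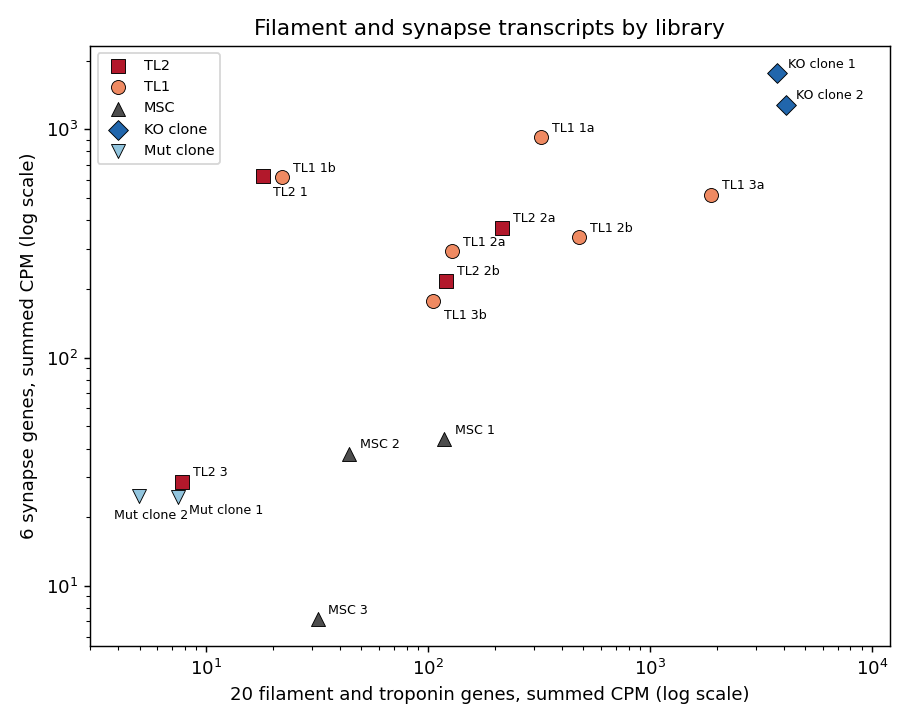
Summed CPM of the 20 filament and troponin genes (horizontal, log scale) against that of the 6 synapse genes (vertical, log scale), 1 point per library, with groups by colour and shape. TL2 1 and TL1 1b stand at the upper left, the KO clones at the upper right, and TL2 3 beside the Mut clones at the lower left.

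Between the tumour generations no member was called. TL2 lines were lower than TL1 lines in all 40 tested members by the fitted log2 change, whose median was -2.29, against 0.02 for all genes, but 0 members were called higher or lower by edgeR, and 0 of all genes in either direction (0% of 13262). At an unadjusted p under 0.05 there were 11 members, and DESeq2 and limma-voom called 0 members as well. TL1 3a carried much of the difference: it had the highest level of the 10 lines in 37 of 45 members, and without it 1 of 35 tested members had a positive change and the median was -1.25. TL2 3 was lowest in 30 members, tied values included, and without it 2 of 40 were positive, with a median of -1.98. Synapse genes showed a median change of -0.80 and thick filament genes of -2.75, a difference between roles that was not tested.

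Ryr1 shows the spread. It was at 0.525, 2.20, 0.768 and 0.579 CPM in TL2 lines, against 14.4, 1.24, 3.21, 6.07, 61.3 and 3.23 CPM in TL1 lines (log2 change -3.86, SE 1.14, edgeR adjusted p = 0.99994). TL1 1b lay within the TL2 range, and the other TL1 lines lay above it. Chrnb1 had the smallest change of the members, at 192, 89.0, 49.7 and 16.4 CPM in TL2 lines, against 125, 113, 101, 121, 64.0 and 27.4 CPM in TL1 lines (-0.06, SE 0.577). TL2 held both the highest and the lowest of these 10 values.

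No member was called by the number that lines share. A test of the numbers 1, 2 and 3 over the 10 tumour lines, with generation as a covariate, called 0 of 35 tested members by edgeR, beside 1.79% of all genes. At an unadjusted p under 0.05 there was 1 member, Chrnb1 (edgeR adjusted p = 0.110), which DESeq2 called and limma-voom did not. Chrnb1 was at 192, 125 and 113 CPM in lines of number 1, at 89.0, 49.7, 101 and 121 CPM in lines of number 2 and at 16.4, 64.0 and 27.4 CPM in lines of number 3. Lines of number 1 and number 3 did not overlap in it, and lines of number 2 overlapped both. Myf6, or MRF4, the fourth factor of the MyoD family and no member, was called by number (edgeR adjusted p = 0.00801), at 3.61, 4.49 and 5.68 CPM in lines of number 1 and at most 0.825 CPM in the other 7 lines.

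Among the heavy chains the fast IIx and the embryonic form led. Levels between genes were compared as CPM per exonic kilobase, in libraries with at least 50 counts of the family. The length was that of all annotated exons of a gene, merged, which can exceed that of the mRNA made. Of the 6 heavy chain genes, Myh1 held 63.5% and 49.1% and Myh3 31.0% and 48.3% of the summed level per kilobase in KO clones. In tumour lines with enough counts, Myh1 held 26.1% (TL1 3a) to 83.7% (TL1 2a) and Myh3 10.6% (TL1 2a) to 62.3% (TL1 3a). In MSC 1 Myh3 held 81.7%. Myh2 and Myh4, the fast IIa and IIb chains, Myh7, the slow chain, and Myh8, the perinatal chain, held at most 6.68% each in any of these libraries. So the embryonic chain led in TL1 3a and MSC 1, Myh1 led in the other tumour lines counted and in KO clone 1, and the 2 genes were nearly equal in KO clone 2.

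**Figure D5:**
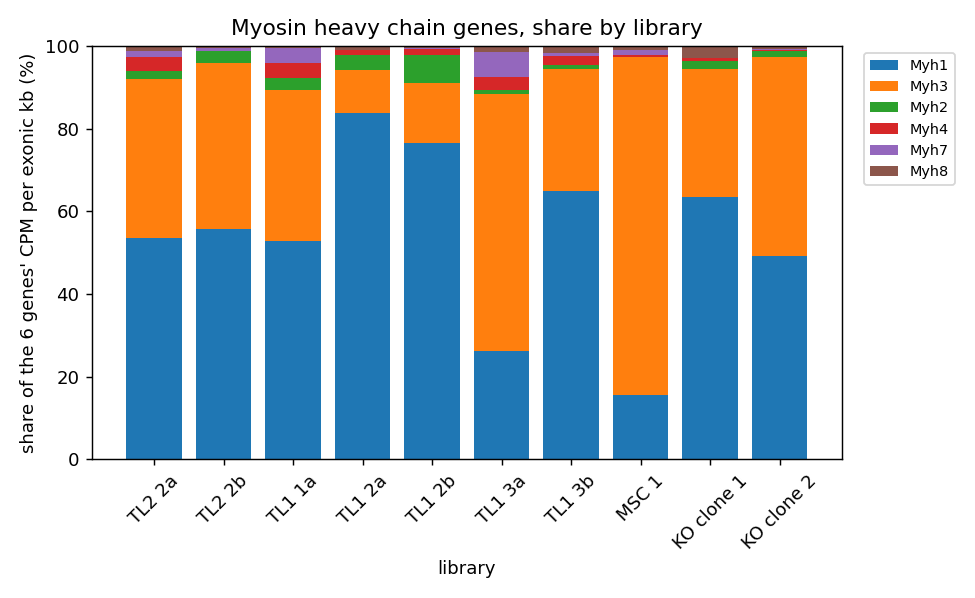
Share of each of 6 myosin heavy chain genes in their summed CPM per exonic kilobase (vertical, percent) in the 10 libraries with at least 50 counts of the family (horizontal). Myh1 and Myh3 fill most of every bar; TL1 3a and MSC 1 have the largest Myh3 shares.

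These shares carry a limit of the sequence. Myh3, Myh2, Myh1, Myh4 and Myh8 lie in that order in a cluster at chr11:67078273-67308634 of GRCm38.p6. Of the stretches of 60 bases, the read length, in the exons of Myh1, 21% also occur in another gene, mainly Myh2, against 18.5% in Myh2, 14.9% in Myh4, 9.90% in Myh8 and 3.09% in Myh3. For Myh7, outside this cluster, it was 13.1%, mainly shared with Myh6. The counting could therefore split or drop reads of Myh1, Myh2, Myh4, Myh7 and Myh8, and their values are uncertain. Myh3 is nearly free of shared stretches, so the balance between Myh1 and Myh3 is uncertain too. Chrnd and Chrng are neighbours as well, 5.74 kb apart on chromosome 1, yet they parted in TL2 1, at 43.6 CPM per kilobase for Chrnd and 0.173 for Chrng, more than in TL1 3a, at 29.3 and 19 CPM per kilobase.

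In the other families slow and cardiac forms led as well as fast ones. Acta1 held 96% and 96.9% of the summed level of Acta1 and Actc1 per kilobase in KO clones, 82.7% (TL1 3a) to 99.4% (TL1 2b) in the tumour lines counted, and 56.3%, 83.4% and 84.0% in MSC. Casq2, the slow and cardiac calsequestrin, held 91.7% and 87.9% against Casq1 in KO clones and 76.6% (TL1 1a) to 87.1% (TL1 2b) in the tumour lines counted. Tnnc1 held 86.8% and 93.4% against Tnnc2 in KO clones and 59.0% (TL2 2b) to 92.4% (TL2 1) in the tumour lines counted. So skeletal actin, the cardiac calsequestrin and the slow troponin C led in each of these libraries by these shares. For troponin C the lead is uncertain, since 74% of the exon length of Tnnc2 overlaps Ube2c on the other strand.

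The troponins T and I were mixed. Tnnt3, the fast troponin T, held 68.2% and 65.9% of the 3 troponin T genes in KO clones and led in TL1 1b at 80.6% and in TL1 3b at 42.6%. The slow Tnnt1 led in TL2 2b at 60.9%, in TL1 1a at 52.0% and in TL1 3a at 56.4%. Tnnt2, the form of heart and embryonic muscle, led in TL2 1 at 60.0%, in TL2 2a at 40.5%, in TL1 2a at 48.5% and in TL1 2b at 47.7%. All of these forms thus led in some tumour line. The merged exons of Tnnt2 are 7.75 kb long, against 1.58 kb for Tnnt3 and 2.20 kb for Tnnt1, so these shares depend on length. By CPM alone, Tnnt2 exceeded Tnnt3 in KO clone 2 (242 against 176 CPM) and in TL1 3b (12.5 against 4.05 CPM). In the other libraries named, the same form led by CPM. Tnni1, slow troponin I, held 67.6% in KO clone 1 and 47.4% in KO clone 2, and 41.8% (TL2 2b) to 82.5% (TL1 3b) in the tumour lines counted, with fast Tnni2 as the rest. By CPM alone, Tnni1 exceeded Tnni2 in KO clone 2 (99.3 against 45.8 CPM) and in TL2 2b (12.1 against 6.99 CPM) too. The form that led per kilobase thus differed between families and, for the troponins T and I, between lines.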

How the data were processed

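RNA was measured in 17 libraries, grouped by their labels. Per the submitters' processing notes, the tools were HTSeq 0.6.1p1, TopHat2 2.0.10, DESeq2 1.6.3 and cutadapt, with mm10; the sources used here give neither their roles nor the annotation or strand setting. Values as deposited are raw whole-number counts per gene; 4 columns matched no sample and were left out. CPM, on TMM-scaled library sizes, and all tests were computed from these counts with edgeR 4.0.16 in R 4.3.3 (quasi-likelihood, filtering by expression, robust estimation), with DESeq2 1.42.0 and limma 3.58.1 as alternatives, after a check on simulated counts. Tumour lines against MSC, as the mean of TL2 and TL1, and TL2 against TL1 came from 1 fit of 13 libraries and share it; the clones were fitted alone, and the line number over 10 lines. A gene without counts in a group is bounded with 3 counts over the group; bounds and intervals cover counting error only. The members, the other gene lists and the tests were chosen with earlier results of these data known. Every member may be named, and of each other list up to 5 called genes of smallest p and 7 fixed regulators. Deviations from group means correlated at r = 0.473, 0.374 and 0.485 between TL1 and TL2 lines of the same number, so the numbers were taken to pair these; for MSC the values were -0.0285 to 0.189. No 2 libraries of the same group agreed within sampling noise. Positions and promoters are RefSeq's for GRCm38.p6; exon lengths and shared stretches come from GENCODE vM21.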

Additional observations from a re-analysis of the deposited data

Results flagged for a closer look

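Groups of 4 and 6 tumour lines were searched for a library far from the rest, over 90 combinations of gene and group, of which chance would mark about 1 in 20. On the log2 scale of CPM plus 0.1, 6 libraries stood apart. TL1 3a was high for Actc1 at 107.7 CPM (next 1.80 CPM), Ckm at 5.65 CPM (next 0.225 CPM) and Trim63 at 1.74 CPM (next 0.375 CPM), and TL1 2a was low for Ttn at 5.22 CPM (next 31.5 CPM). In TL2, Cdh15 was low in TL2 3 at 1.09 CPM (next 88.8 CPM), and Myh4 was counted in TL2 2a alone, at 0.582 CPM.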

How the results depend on the processing

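The members called in the clones were the firmest: 43 under each other test, scaling or filter (Myh8 was not among them without the filter) and 40 to 43 without 1 clone, with all genes at 796 to 1016 higher and 502 to 753 lower without 1 clone, against 1734 and 1466. For tumour lines against MSC, members called higher numbered 10 with DESeq2, 4 with library totals alone, 1 with limma-voom, 5 with the line number as replicate block and 5 with lines summed per number, where Myom1 was lost (0 lower); without 1 library they were 0 to 5 higher and 0 to 1 lower. The pairing by block changed no other call between the generations. All genes called in that comparison were 1167 higher and 1041 lower with DESeq2, 967 lower with limma-voom, 718 higher and 968 lower with the block, and 75 to 682 higher and 229 to 850 lower without 1 library, the fewest without MSC 3. TL2 against TL1 gave 3 genes lower with DESeq2, none a member. By line number DESeq2 called 1 member and 1893 genes, no filter 413 genes, and leaving out 1 library 28 to 269. Directions turned for uncalled genes: against MSC, Actc1 was 0.68 and Neb 0.53 with lines summed; Actn2 -0.45, Cav3 -0.31, Myh3 -0.79, Myog -0.24 and Tmem8c -0.14 with limma-voom; and Actn2 -0.17, Myh3 -0.21 and Tmem8c -0.087 with the block. For TL2 minus TL1, Myf5 was -2.42 with limma-voom and -0.93 with the block. Without 1 library, ranges that crossed 0 were, against MSC, Actc1 -2.45 to 1.51, Cav3 -0.074 to 0.54, Myh3 -0.66 to 2.56 and Tmem8c -0.46 to 2.38, and, for TL2 minus TL1, Actc1 -6.66 to 0.67, Chrnb1 -0.83 to 0.26, Myf5 -1.32 to 0.50, Rapsn -0.49 to 0.28 and Trp53 -0.0073 to 0.26. Library totals alone moved the clone changes by -0.12 (median of the members' shifts) and other scalings by less than that in any comparison. The causes were not tested. Low counts limit Myh4, Myh7, Myh8, Ckm and Trim63.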
